A study of Homo sapiens with 6 samples.

Results

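Human chromosome 5 is described here through the RNA of its genes in K562 cells labelled WT and K562 cells labelled ACK KO. The genes were those of the deposited table that lie on chromosome 5 in GRCh38 and reached a normalised value of 10 in 3 or more of the 6 libraries. Of the 848 chromosome 5 genes listed, 693 passed, among 16658 genes that passed over the whole genome, and 155 did not. K562 is an established, aneuploid human line from a chronic myeloid leukaemia with the BCR::ABL1 fusion kinase. The study compared 3 biological replicates of WT cells with 3 of cells in which ACK was knocked out, with the same medium and no treatment named for either. ACK is the non-receptor tyrosine kinase encoded by TNK2, and the title of the series sets its loss beside transcription driven by STAT5. The labels do not say whether the knockout cells were 1 clone or several, nor whether replicates were separate cultures.

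Each chromosome carries a fixed set of genes, and in cultured cells the RNA of most genes follows, on average, the number of DNA templates, while some genes are held up or down by their own regulation. The long arm of chromosome 5 is best known in blood for a recurrent deletion in myeloid neoplasia, in which loss of 1 copy of genes such as RPS14 and CSNK1A1 is thought to matter. The same arm holds the cytokine cluster of 5q31 and the clustered protocadherins, cell-surface cadherins that are chosen promoter by promoter in neurons. DNA copy number was not analysed here, so only RNA is described, and genotype, clone and chromosome content cannot be told apart. In bulk RNA, fewer cells of a type and less RNA per cell cannot be told apart either.

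The rule used the contrast that is described below. KO-labelled minus WT differences of chromosome 5 were known when the chromosome was chosen, so they are given as a description, with no test. Values are the authors' normalised read counts, which are not divided by gene length. A difference is the mean of log2(value + 1) over the 3 KO-labelled libraries minus that over the 3 WT libraries, and its standard error (SE) comes from the limma fit over all tested genes. The added 1 understates the difference of genes with low values. TNK2 mRNA was 829.7, 613 and 642 in WT and 741, 506 and 598 in the KO-labelled libraries, a log2 difference of -0.18 (95% interval -0.68 to 0.32), so that mRNA does not check the genotype labels. All 11 erythroid markers listed for K562 had a mean of 100 or more, and their summed values overlapped, from 73444 to 139584 in WT and from 84537 to 133350.5 in the KO-labelled libraries. Single markers did move apart: HBE1, embryonic epsilon-globin, was 1387, 1031 and 1527 in WT and 9391, 10443 and 17322 in the KO-labelled libraries, and GATA1, an erythroid transcription factor, was 9877, 8842 and 8921 in WT and 6980.5, 7029.8 and 6863 in the KO-labelled libraries. Of the fibroblast markers, COL1A1 was 12, 4.68 and 32.2 in WT and 204, 74.6 and 121 in the KO-labelled libraries, DCN stayed low and overlapped (2.26 to 11.6 in WT and 3.97 to 10.1 in the KO-labelled libraries), and their sums were 8.21 to 34.5 and 84.7 to 208, while COL1A2, LUM and PDGFRA were not analysed here. The part of these markers in the results below was not tested. Library sums ran from 43.5 M to 53.3 M, and the read depth behind them is unknown.

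Sequences before the RefSeq start of 6 members are shown because these genes mark the range of behaviour along the chromosome. SPARC had the highest and FYB1 the lowest difference, PCDHB5 and TAF7 are near neighbours with opposite differences, RPS14 lay close to the chromosome median, and DIAPH1 was the lowest of the members with a mean of 10000 or more. Each run is the 250 bases before the RefSeq start of the gene, 5′ to 3′ on the strand of the gene, from RefSeq on GRCh38.p14. Capitals mark CG dinucleotides, which are dense in the promoters of most broadly expressed genes. The SPARC run is chr5:151686916-151687165 on the minus strand, and the PCDHB5 run is chr5:141134956-141135205 on the plus strand. The FYB1 run is chr5:39270650-39270899 and the TAF7 run is chr5:141320785-141321034, both on the minus strand. The RPS14 run is chr5:150449740-150449989 and the DIAPH1 run is chr5:141619001-141619250, both on the minus strand.
SPARC: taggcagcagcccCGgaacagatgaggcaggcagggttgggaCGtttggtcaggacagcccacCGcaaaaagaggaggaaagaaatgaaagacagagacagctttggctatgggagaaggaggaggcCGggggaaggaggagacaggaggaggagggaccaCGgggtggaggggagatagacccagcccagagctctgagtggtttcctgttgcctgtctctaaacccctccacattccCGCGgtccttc
PCDHB5: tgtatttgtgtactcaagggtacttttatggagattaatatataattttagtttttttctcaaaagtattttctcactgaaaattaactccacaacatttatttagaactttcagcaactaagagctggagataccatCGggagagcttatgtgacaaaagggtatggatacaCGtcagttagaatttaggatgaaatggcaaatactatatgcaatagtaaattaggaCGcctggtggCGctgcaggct
FYB1: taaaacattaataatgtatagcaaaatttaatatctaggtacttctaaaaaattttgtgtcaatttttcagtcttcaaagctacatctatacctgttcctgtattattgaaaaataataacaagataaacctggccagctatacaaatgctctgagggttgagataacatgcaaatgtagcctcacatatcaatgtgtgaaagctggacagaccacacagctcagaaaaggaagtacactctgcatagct
TAF7: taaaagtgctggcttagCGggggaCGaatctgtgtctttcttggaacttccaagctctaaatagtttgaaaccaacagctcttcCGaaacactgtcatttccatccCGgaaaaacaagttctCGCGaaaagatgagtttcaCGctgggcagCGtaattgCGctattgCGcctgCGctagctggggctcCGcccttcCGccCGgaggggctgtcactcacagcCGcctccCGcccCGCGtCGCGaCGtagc
RPS14: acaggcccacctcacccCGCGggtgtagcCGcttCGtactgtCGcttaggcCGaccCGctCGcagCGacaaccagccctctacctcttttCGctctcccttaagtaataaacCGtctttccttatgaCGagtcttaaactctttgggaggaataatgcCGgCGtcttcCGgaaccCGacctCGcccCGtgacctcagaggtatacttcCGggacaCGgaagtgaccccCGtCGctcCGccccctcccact
DIAPH1: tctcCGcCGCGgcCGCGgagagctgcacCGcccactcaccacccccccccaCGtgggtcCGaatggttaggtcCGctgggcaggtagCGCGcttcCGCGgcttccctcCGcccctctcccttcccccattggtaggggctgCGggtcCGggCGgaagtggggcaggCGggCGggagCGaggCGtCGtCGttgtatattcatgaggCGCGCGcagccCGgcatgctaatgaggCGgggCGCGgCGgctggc
The FYB1 run holds 0 CG dinucleotides, the PCDHB5 run 4 and the SPARC run 7, while the runs of TAF7, RPS14 and DIAPH1 hold 21, 23 and 31. These counts describe the RefSeq start only. In GENCODE 29 the genes span, in GRCh38, SPARC chr5:151661096-151687165, PCDHB5 chr5:141135218-141138625, FYB1 chr5:39105255-39274528, TAF7 chr5:141260225-141320821, RPS14 chr5:150442635-150449756 and DIAPH1 chr5:141515016-141619055. The SPARC run and the FYB1 run lie inside those spans, and the runs of TAF7, RPS14 and DIAPH1 overlap the end of theirs, so RefSeq and GENCODE starts differ. These genes were picked after their values were seen.

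Most chromosome 5 genes had less RNA in the KO-labelled libraries, and by a similar amount. The median difference was -0.62, which is 64.9% of the WT level, and the quartiles of the 693 genes were -0.84 and -0.36, an interquartile range of 0.48. On all chromosomes other than 5, 7 and 20, which had their own shifts, 14488 genes had a median of -0.03 and an interquartile range of 0.56. The displaced distribution was thus about as wide as that of the rest of the genome. Within 0.3 of the chromosome median, between -0.92 and -0.32, lay 391 members (56.4%), called followers below. The same width around the median of the other chromosomes took 52.7% of their genes. Of the members outside that band, 173 were lower by another amount, 41 were at least 1 below the median (-1.62 or less), and 88 were not lower, with a difference of 0 or more. Those 88 comprise 55 between 0 and 1 and 33 of 1 or more, called strongly higher.

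The shift was present in every KO-labelled library. Against the mean of the WT libraries, the median chromosome 5 gene stood at 0.02, -0.00 and 0.01 in WT and at -0.62, -0.60 and -0.60 in the KO-labelled libraries, while the median gene of other chromosomes stood between -0.04 and 0.02. Chromosome 5 took 4.71%, 4.88% and 4.88% of the summed values in WT and 3.21%, 3.24% and 3.25% in the KO-labelled libraries, so the groups did not overlap. In all 3 pairs of equal replicate number 547 members were below 0, and 56 were above 0 in all 3. All KO-labelled libraries lay below all WT libraries for 372 members and above them for 34, against 14.7% and 15.2% of all tested genes. With the limma fit over all genes (Benjamini-Hochberg adjusted p under 0.05), 195 members were called lower and 22 higher, where 4.96% and 5.37% of all tested genes were called. With the replicate number as a block the counts were 467 and 37, where 20% and 19.7% of all genes were called. With 1 library left out, the count called lower dropped to 54 (leaving out WT replicate 3, or the KO-labelled replicate 3), 72 (WT replicate 2) and 81 (KO-labelled replicate 2), and the count called higher to 11 (KO-labelled replicate 3). These counts come from the contrast that chose the chromosome and nothing is read from them.

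**Figure D1:**
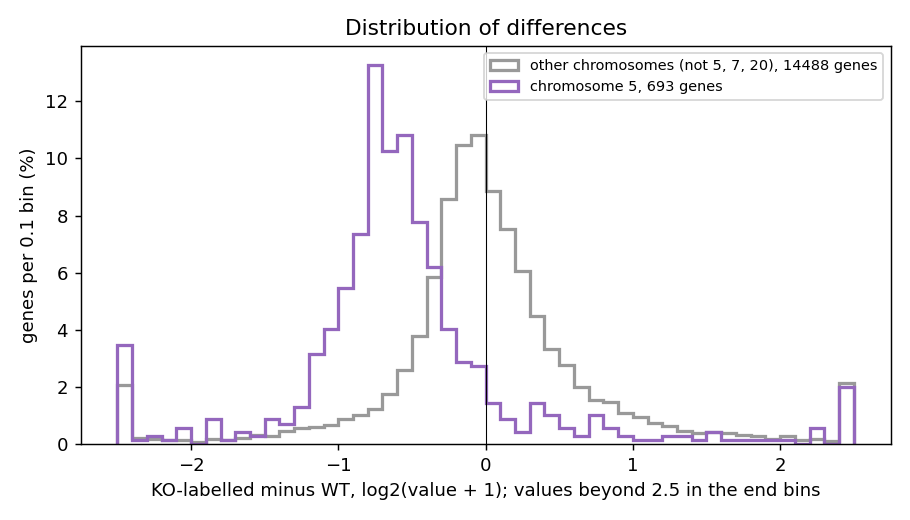
KO-labelled minus WT differences in log2(value + 1), as the percentage of genes in each bin of 0.1, for the 693 chromosome 5 genes (purple) and 14488 genes of chromosomes other than 5, 7 and 20 (grey); values beyond 2.5 stand in the end bins. The chromosome 5 curve has about the same width, with its median at -0.62 where the other has -0.03.

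Both arms carried the difference. The members were split at the longest stretch without an annotated gene, 45.9 to 50.4 Mb, which spans the centromere. The 135 genes of the short arm had a median of -0.54 and an interquartile range of 0.54, and the 558 genes of the long arm a median of -0.66 and a range of 0.46. In the short arm 84.4% of genes were below 0 and in the long arm 88.0%. By replicate number the short arm medians were -0.53, -0.57 and -0.53 and the long arm medians -0.66, -0.65 and -0.64, so the long arm was the lower of the arms in each pair. Among 19 bins of 10 Mb every median was below 0, from -0.97 at 160 to 170 Mb (18 genes) to -0.38 at 40 to 50 Mb (28 genes), and the other 17 lay between -0.73 and -0.49. Of 679 windows of 15 neighbouring genes 98.7% had a median below 0 and 94.0% a median between -0.9 and -0.3. The chromosome thus held a nearly level floor, with a few stretches that stood off it.

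**Figure D2:**
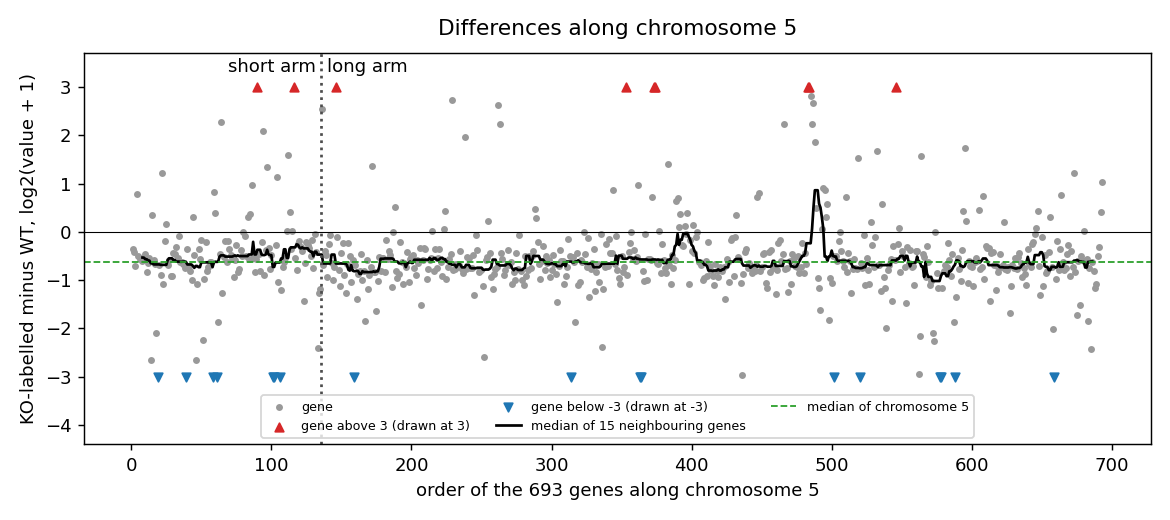
KO-labelled minus WT difference in log2(value + 1) of each of the 693 genes (points), in order along chromosome 5, with the median of 15 neighbouring genes (black line) and the chromosome median of -0.62 (green dashes); triangles at 3 and -3 stand for genes beyond those values. The line stays between -0.9 and -0.3 in 94.0% of windows and rises furthest near gene 395 and near gene 490, and it also passes -0.3 briefly on the short arm.

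The stretches were picked after their values were seen. From ACSL6 to GDF9 (131.95 to 132.87 Mb, in 5q31) 16 genes had a median of -0.03, with 7 at 0 or above, while the 10 genes on either side had medians of -0.63 and -0.70. P4HA2, which encodes a collagen prolyl hydroxylase subunit, was 816, 634 and 691 in WT and 1406, 1052 and 1018 in the KO-labelled libraries, a difference of 0.69 (SE 0.19). All KO-labelled libraries exceeded all WT libraries for P4HA2. The carnitine and organic cation transporter gene SLC22A4 had 0.36 (SE 0.28) and its neighbour SLC22A5 -0.30 (SE 0.32). IRF1, an interferon-regulated transcription factor of the same stretch, was 864, 513 and 532 in WT and 585, 559 and 509.5 in the KO-labelled libraries, so the groups overlapped (-0.17, SE 0.24). RAD50, the repair gene between IRF1 and KIF3A, was 7903, 8231 and 7682 in WT and 5934, 6210.0 and 5932 in the KO-labelled libraries, a difference of -0.40 (SE 0.10). RAD50 was 1 of 2 followers among the 16 genes. The medians of the stretch by replicate number were -0.20, 0.06 and -0.15.

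The second stretch is the protocadherin cluster, PCDHB2 to PCDHGB4 (141.09 to 141.51 Mb). Abundance here is the mean value over the 6 libraries. Its 15 genes that passed had a median of 0.86, with 12 at 0 or above, and the 10 genes on either side had medians of -0.69 and -0.56. These were scarce: their median abundance was 23.7, where that of the ACSL6 to GDF9 genes was 440. Of 54 clustered protocadherin symbols in the annotation 26 are in the table and 13 passed, and some of them, such as PCDHB5, did so through their KO-labelled values alone and so had to differ. PCDHB5 was 1.92, 3.6 and 4.5 in WT and 111, 116 and 157 in the KO-labelled libraries, a difference of 4.93 (SE 0.38). PCDHB13 was 30.7, 15.3 and 13.5 in WT and 173, 94.1 and 115 in the KO-labelled libraries (2.67, SE 0.42). Both are among the 12 highest members by a naming rule that kept only genes whose groups did not overlap. The gamma genes ran from -1.62 for PCDHGA1 to 0.90 for PCDHGB2. PCDHGA1 was 24.1, 17.2 and 27.5 in WT and 9.34, 4.5 and 6.93 in the KO-labelled libraries. Gamma transcripts share their 3′ exons and the beta genes are near copies of each other, so the split of reads among them is uncertain. TAF7, a subunit of the general transcription factor TFIID, lies inside the cluster and was 7101, 6557 and 6624 in WT and 3446, 3238 and 3745 in the KO-labelled libraries, a difference of -0.96 (SE 0.11). A gene lower than the chromosome median thus lay between the higher protocadherin genes, whose upstream run printed above has 4 CG (PCDHB5) where that of TAF7 has 21.

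**Figure D3:**
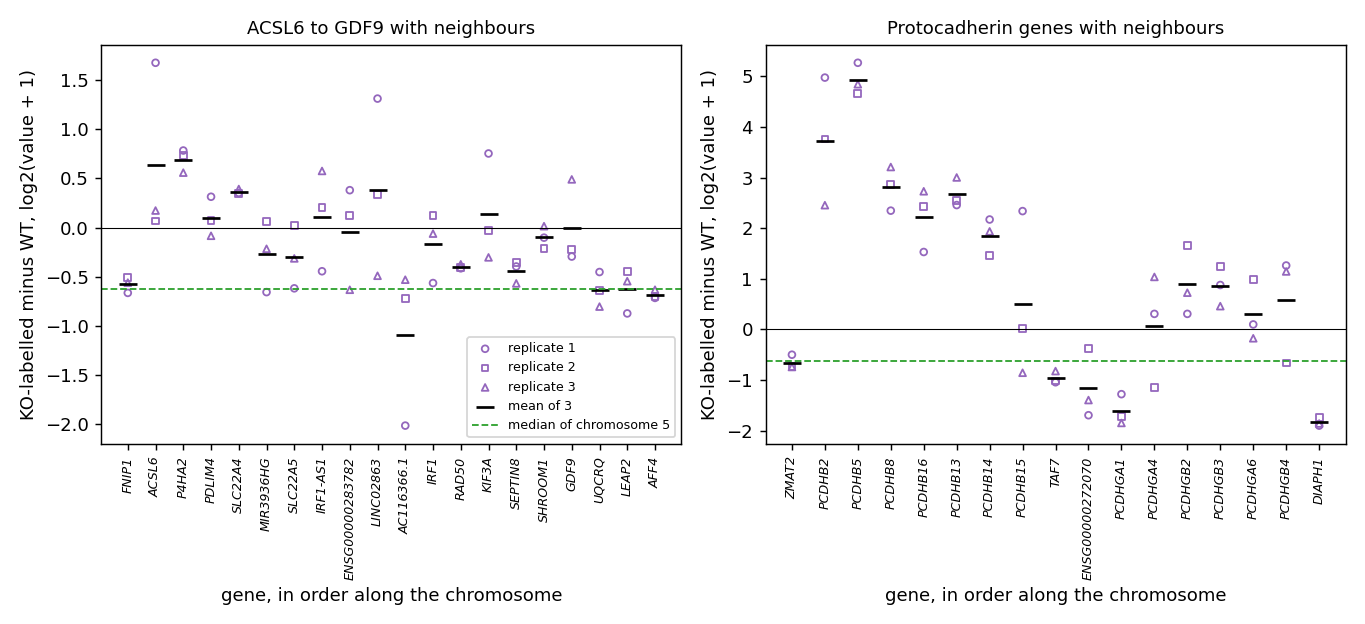
KO-labelled minus WT difference in log2(value + 1) for each replicate number (open symbols) and their mean (bars), for the genes from ACSL6 to GDF9 (left) and the protocadherin genes (right), with neighbours on both sides; the green dashes mark the chromosome median of -0.62. PCDHB5 has the highest mean, 4.93, and TAF7 lies at -0.96 within the same stretch.

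At the other end, the 15 genes from LSM11 to NUDCD2 (157.7 to 163.5 Mb) had the lowest window median, -1.02, with flanking medians of -0.59 and -0.70. Its medians by replicate number were -1.01, -0.97 and -0.98. PTTG1, which encodes securin, the inhibitor of sister chromatid separation, was 3869.6, 4924 and 4858 in WT and 1509, 2341 and 2299 in the KO-labelled libraries (-1.17, SE 0.21). CCNG1, encoding cyclin G1, was 23555, 11872 and 13861 in WT and 8780.2, 6092 and 6532 in the KO-labelled libraries (-1.16, SE 0.28). Neither gene's groups overlapped. On the short arm the 18 genes from CARD6 to PAIP1 (40.8 to 43.6 Mb) had a median of -0.30, with -0.53, -0.33 and -0.17 by replicate number, which is a wider spread than in the other stretches.

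How closely a gene kept to the shared level went with how much RNA it had. Members were grouped by their mean over all 6 libraries. The 162 genes under 100 had a median of -0.54 with an interquartile range of 1.34, and 28.4% were followers. The 186 genes from 100 to 1000 had a range of 0.60 and 45.7% followers, the 303 genes from 1000 to 10000 a range of 0.32 and 74.9%, and the 42 genes of 10000 or more a range of 0.27 and 78.6%. The median SE of a difference was 0.46, 0.29, 0.17 and 0.18 in these classes, so the wider spread of scarce genes lay beside larger library-to-library error, whose part in it was not tested. On chromosomes other than 5, 7 and 20 the ranges of the same classes were 1.14, 0.71, 0.36 and 0.24. In the top class all 42 genes were below 0, with a median of -0.73, where the top class elsewhere had -0.13. Grouped by the WT mean instead, the 164 genes under 100 had a median of -0.38, a range of 1.52 and 26.8% followers. The higher classes by WT mean had ranges of 0.71, 0.32 and 0.28.

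**Figure D4:**
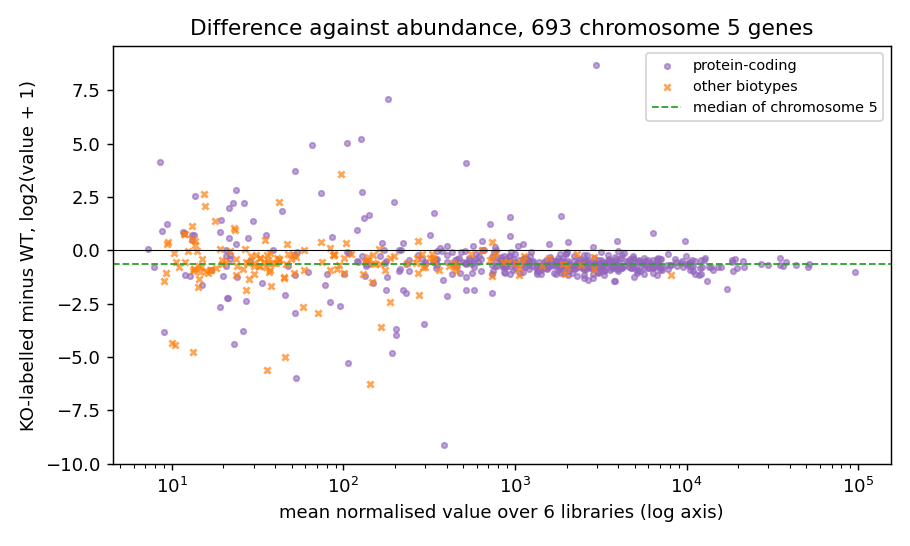
KO-labelled minus WT difference in log2(value + 1) of the 693 chromosome 5 genes against their mean normalised value over 6 libraries (log axis), for protein-coding genes (purple points) and other biotypes (orange crosses). The cloud narrows around the median of -0.62 (green dashes) to the right, where the interquartile range is 0.27 at means of 10000 or more and 1.34 at means under 100.

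Biotypes shared the level and differed in spread. The 528 protein-coding members had a median of -0.64, an interquartile range of 0.43 and 60.0% followers. The 115 long non-coding genes had a median of -0.62, a range of 0.79 and 38.3% followers, and the 41 pseudogenes a median of -0.54 and a range of 0.32. Elsewhere in the genome the ranges of protein-coding genes, long non-coding genes and pseudogenes were 0.51, 0.81 and 0.89. Within abundance classes the order of the ranges changed. Under 100 they were 2.19 for 60 protein-coding and 1.01 for 72 long non-coding members. From 100 to 1000 they were 0.68 for 138 protein-coding and 0.62 for 30 long non-coding genes. From 1000 to 10000 they were 0.32 for 288 protein-coding and 0.55 for 13 long non-coding genes. The part of abundance in the spread of the biotypes was not tested.

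Promoter sequence was not used by the rule, and it is compared here as a description. RefSeq windows of 250 bases before to 50 after the start were matched for 478 of the 528 protein-coding members (90.5%) and for 10238 protein-coding genes of the whole table. The median number of CG dinucleotides was 26 on chromosome 5 and 26 over all tested genes. Followers had a median of 26 (quartiles 20 and 35), the strongly higher genes of 15 (9 and 32) and the genes at least 1 below the chromosome median of 30 (6 and 36). Over all genes of these classes the median abundance was 1854, 52.1 and 78.4. Chromosome 5 windows of genes with a mean under 100 had a median of 16.5 CG. The 393 genes with at least 15 CG had an interquartile range of differences of 0.38 and 63.4% followers, and the 85 genes with fewer a range of 1.27 and 37.6%. Their abundance differed as well, with median means of 1949.9 and 298. Among members with a mean of 1000 or more, followers made up 76.1% of 268 genes with at least 15 CG and 63.0% of 27 with fewer, and the ranges were 0.32 and 0.37. The letters TTCNNNGAA, a core that STAT proteins can bind and that reads alike on both strands, occurred in 7.32% of chromosome 5 windows, 5.69% of followers and 6.18% of all windows. By class it stood in 16.0% of the genes at least 1 below the median (4 genes), 9.82% of the other lower genes, 11.8% of those from 0 to 1 (4 genes) and 0 of 26 strongly higher genes. The letters AGATAA, a core that GATA proteins can bind, searched on both strands and free to share bases with the first, occurred in 5.44% of chromosome 5 windows, 3.20% of followers and 5.06% of all windows. By class it stood in 16.0% of the genes at least 1 below the median (4 genes), 5.36% of the other lower genes, 11.8% of those from 0 to 1 (4 genes) and 11.5% of the strongly higher genes (3 genes). FYB1 is among the first of these classes, and the letters stand in its run above.

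The genes of known function are described next by role. Counts of called genes in each list stand against the 4.96% (lower) and 5.37% (higher) of all tested genes given above. Over all chromosome 5 members the shares were 28.1% and 3.17%. Of protein-coding members with a mean of 1000 to 10000, 44.1% were called lower. Among all members with such a mean, whatever their role, 74.9% were followers and 96.7% were below 0. Since the same contrast chose the chromosome, nothing is read from the counts of called genes.

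Ribosomal and translation genes kept close to the shared level: all 20 that passed were below 0, 19 were followers, their median was -0.72 and 9 were called lower and 0 higher. RPS14, a small-subunit protein, was 34796, 41861 and 34529.8 in WT and 23806, 23988 and 21059 in the KO-labelled libraries, a difference of -0.69 (SE 0.14). RPS23, of the same subunit, was 48193, 62119 and 50395 in WT and 31753, 36854 and 30259 in the KO-labelled libraries (-0.70, SE 0.16). RACK1, a scaffold on the small subunit, was 64436, 69669.9 and 61213 in WT and 39779.6, 38074 and 34003 in the KO-labelled libraries (-0.81, SE 0.13). No KO-labelled library reached a WT library for these 3 genes. RPL37, of the large subunit, had -0.55 (SE 0.13). The 5 ribosomal protein genes of chromosome 5, with RACK1 counted among them, ran from -0.81 (RACK1) to -0.55 (RPL37) with a median of -0.70. The comparison was chosen after the values were seen. The 79 ribosomal protein genes of chromosomes other than 5, 7 and 20 had a median of -0.13 and ran from -0.55 to 0.43. NPM1, a nucleolar chaperone of ribosome assembly, was 89707, 160084 and 136369 in WT and 44832, 78780.1 and 66989 in the KO-labelled libraries. Its WT libraries spread widely, none of the KO-labelled libraries reached the lowest of them, and the difference was -1.02 (SE 0.29).

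The genes of the region deleted in myeloid neoplasia, with nearby haematopoietic genes, split into a large group at the shared level and a few far from it. Of 22 that passed, 20 were below 0 and 15 were followers, with a median of -0.69, 10 called lower and 1 higher. CSNK1A1, the casein kinase whose product lenalidomide directs to degradation, was 10096, 10558 and 10428 in WT and 6406, 7125 and 7777 in the KO-labelled libraries (-0.55, SE 0.12). HSPA9, a mitochondrial chaperone, was 41892, 50549 and 43948 in WT and 27455, 28669 and 26309.8 in the KO-labelled libraries (-0.72, SE 0.13). Neither gene's groups overlapped. DIAPH1, a formin that builds actin filaments, was 22688, 27791 and 30424 in WT and 6079, 8306 and 8389 in the KO-labelled libraries, a difference of -1.83 (SE 0.18). DIAPH1 was thus more than 1 below the chromosome median, with no overlap between its groups. EGR1, an immediate early zinc finger factor, was 2085, 3078 and 9845 in WT and 7998, 3668 and 11348 in the KO-labelled libraries, which overlapped widely (0.80, SE 0.64). In each pair of equal replicate number EGR1 was higher in the KO-labelled library. APC, the WNT pathway brake, had -0.25 (SE 0.21). In the list of 13 genes of the 5q31 cytokine cluster and its neighbours, which overlaps the ACSL6 to GDF9 stretch, the median was -0.22, 5 genes were at 0 or above, 3 were followers and none was called by limma in either direction (with the block, 5 lower and 1 higher). IL3, CSF2, IL4, IL5, IL13 and IL9 were not analysed here.

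Signalling genes ranged widely. All 6 receptors that passed were below 0, with a median of -0.94, 1 follower and 2 called lower. F2R, the thrombin receptor, was 2972, 3988 and 3792 in WT and 1158, 1397 and 1833 in the KO-labelled libraries (-1.31, SE 0.21). FGFR4, a fibroblast growth factor receptor, was 1063, 1475 and 1309 in WT and 429, 699 and 664 in the KO-labelled libraries (-1.12, SE 0.24). IL6ST, the shared signalling chain gp130, was 3269, 2342 and 2903 in WT and 2450.4, 2245 and 2486 in the KO-labelled libraries, so its groups overlapped (-0.23, SE 0.16), and LIFR, its partner receptor, had -0.27 (SE 0.23). In each pair of equal replicate number IL6ST was lower in the KO-labelled library. The 21 kinases, phosphatases and adaptors had a median of -0.82, with 8 followers, 11 called lower and 0 higher, and they ran from -9.13 to 1.67. PPP2CA, the catalytic subunit of phosphatase 2A, was 9230.2, 13613 and 13403 in WT and 5815, 7869.6 and 6929.9 in the KO-labelled libraries (-0.80, SE 0.20). RICTOR, a subunit of the kinase complex mTORC2, was 8473, 5780.4 and 6493 in WT and 3957, 2879.5 and 3186 in the KO-labelled libraries (-1.04, SE 0.19).

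The lowest of the signalling list were genes known from T cells. FYB1, an adaptor that binds LCP2, was 1193, 618 and 507 in WT and 1.12, 0 and 0 in the KO-labelled libraries, a difference of -9.13 (SE 0.49) on the log2(value + 1) scale. LCP2, known as SLP-76, was 337, 339.9 and 439 in WT and 11.8, 26.8 and 67.9 in the KO-labelled libraries (-3.67, SE 0.59), or -3.08 leaving out KO-labelled replicate 1 and -4.29 leaving out replicate 3. Both were named by a rule that kept only genes whose groups did not overlap, and FYB1 passed the threshold through its WT values alone. Of the T and B cell markers, CD3D was the 1 gene with a mean of 100 or more among 4 in the table, and the summed values overlapped, from 509 to 1806 in WT and from 1002 to 1778 in the KO-labelled libraries. CAMK2A, a calcium-dependent kinase, was 112, 30.1 and 54.2 in WT and 333, 79.5 and 232 in the KO-labelled libraries, which overlapped (1.67, SE 0.66). In each pair of equal replicate number CAMK2A was higher in the KO-labelled library.

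Mitochondrial genes were lower throughout: all 15 were below 0, 8 were followers, the median was -0.92 and 7 were called lower and 0 higher. MRPS30, a mitochondrial ribosomal protein, was 6091, 7729 and 7071 in WT and 2409.6, 3201 and 3102 in the KO-labelled libraries (-1.27, SE 0.16). SDHA, the flavoprotein of respiratory complex II, was 8071, 9193 and 8558 in WT and 4742, 5371 and 5722 in the KO-labelled libraries (-0.71, SE 0.12). NDUFS4, a complex I subunit, had -0.94 (SE 0.17), COX7C of complex IV -0.76 (SE 0.20) and NNT, the transhydrogenase, -0.41 (SE 0.11). The members of this list thus ran from MRPS30 to NNT over -1.27 to -0.41.

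Cell cycle, repair, chromatin and RNA genes mostly followed, as did 74.9% of all members with a mean of 1000 to 10000. All 16 cell cycle genes were below 0, 13 were followers, the median was -0.78 and 9 were called lower. CDK7 and CCNH, kinase and cyclin of the CDK-activating complex, had -0.65 (SE 0.12) and -0.82 (SE 0.19). CCNB1, the mitotic cyclin B1, was 6389.7, 12299 and 11519 in WT and 3159, 7308 and 6421 in the KO-labelled libraries, so 2 of the KO-labelled values exceeded the lowest WT value (-0.87, SE 0.38). In each pair of equal replicate number CCNB1 was lower in the KO-labelled library. PLK2, a polo-like kinase, stood apart with 193, 492 and 469.9 in WT and 19.4, 17.4 and 30.5 in the KO-labelled libraries (-3.97, SE 0.44). All 10 repair, replication and telomerase genes were below 0 (8 followers, median -0.56, 2 called lower). TERT, the telomerase reverse transcriptase, was 665, 1530.0 and 1424 in WT and 366, 698 and 593 in the KO-labelled libraries, which overlapped (-1.08, SE 0.39). TERT too was lower in each pair of equal replicate number. Of 21 chromatin and transcription genes 20 were below 0 and 15 were followers, with a median of -0.62 and 9 called lower, KDM3B, a histone demethylase, having -0.69 (SE 0.12). Of 20 genes of pre-mRNA processing and RNA binding 19 were below 0 and 17 were followers, with a median of -0.74 and 7 called lower. HNRNPH1, a splicing regulator, was 39618, 40488 and 38605 in WT and 29113, 32218 and 31513 in the KO-labelled libraries (-0.36, SE 0.12), the difference closest to 0 among the 10 members with the highest WT means. CPEB4, which binds elements of mRNA tails, was the 1 member of that list above 0, with 3494, 3201 and 3285 in WT and 4922, 4491 and 4257 in the KO-labelled libraries (0.45, SE 0.12). MATR3 is listed under 2 identifiers, with -1.06 (SE 0.19) and -0.41 (SE 0.24), and the split of its reads between them is uncertain.

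Folding and secretory genes were all lower and metabolic genes were mixed. All 19 folding, degradation and secretory genes were below 0, 15 were followers, the median was -0.71 and 10 were called lower. CANX, a lectin chaperone of the endoplasmic reticulum, was 62911, 65496 and 60156 in WT and 41911, 41241 and 38682 in the KO-labelled libraries (-0.63, SE 0.12). CCT5, a subunit of the TRiC chaperonin, was 27726, 54897 and 47601 in WT and 17549.8, 33526 and 28277 in the KO-labelled libraries, and the groups overlapped (-0.71, SE 0.33). In each pair of equal replicate number CCT5 was lower in the KO-labelled library. PAM, which amidates secreted peptides, was the lowest of the list with -1.87 (SE 0.44). Of 16 sterol, lysosomal and amino acid genes 12 were below 0 and 10 were followers, with a median of -0.49, 1 called lower and 2 higher. HMGCS1, the synthase that makes HMG-CoA for sterols, was 23360.0, 17111 and 17325 in WT and 5376, 7461 and 8642 in the KO-labelled libraries (-1.44, SE 0.22). OXCT1, which activates ketone bodies, went the other way, with 885, 845 and 1019 in WT and 2871, 2654 and 2792 in the KO-labelled libraries (1.60, SE 0.13).

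**Figure D5:**
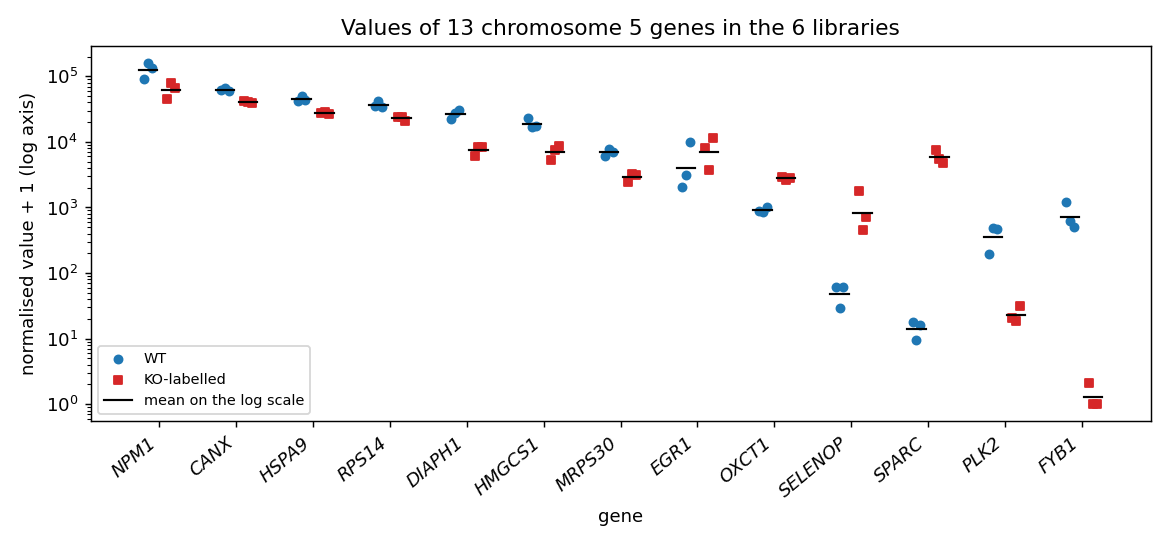
Normalised values plus 1 (log axis) of 13 chromosome 5 genes in the 3 WT libraries (blue circles) and the 3 KO-labelled libraries (red squares), with bars at the mean on the log scale. CANX, HSPA9 and RPS14 show small, like steps down, NPM1 and DIAPH1 larger ones, and SPARC and FYB1 lie at the extremes with differences of 8.68 and -9.13.

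The 88 genes that were not lower included many with low values. A mean under 100 over the 6 libraries was found for 48 of them, and 62 were protein-coding. A WT mean under 10 was found for 25, some of which passed the threshold through their KO-labelled values alone. Among the 366 members with a WT mean of 1000 or more, 6 were at 0 or above: LPCAT1, RAI14, MAP1B, ARRDC3, EGR1 and CPEB4, named here after their values were seen. A cut on the WT mean leaves out genes that rose from low WT values, such as SPARC. By the mean over 6 libraries it was 10 of 345 members. On chromosomes other than 5, 7 and 20 the shares at 0 or above were 39.0% for WT means of 1000 to 10000 and 19.9% for 10000 or more. RAI14, an ankyrin repeat protein of actin structures, was 1587, 1927 and 1788 in WT and 2393, 2286 and 2170.0 in the KO-labelled libraries (0.37, SE 0.13). RAI14 and CPEB4 were higher in every KO-labelled library than in any WT library, whereas MAP1B, a microtubule-associated protein, was 13479, 6002 and 6420.0 in WT and 13966, 9740.2 and 9495 in the KO-labelled libraries and overlapped. In each pair of equal replicate number MAP1B was higher in the KO-labelled library.

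Of the 12 highest members by the naming rule, 9 had a value under 100 in every WT library. SPARC, a secreted matrix glycoprotein, was 17.2, 8.68 and 15.3 in WT and 7573, 5519 and 4748 in the KO-labelled libraries, a difference of 8.68 (SE 0.31). SPEF2, named for sperm flagella, was 4.23, 0.575 and 0.544 in WT and 636, 229.6 and 214 in the KO-labelled libraries (7.08, SE 0.66). SELENOP, a secreted selenium carrier, was 60.8, 28.5 and 61 in WT and 1789, 455 and 709 in the KO-labelled libraries (4.11, SE 0.55). The naming rule kept only genes whose groups did not overlap, so their separation is not a finding. For all 3, replicate 1 was the highest of the KO-labelled libraries. GPX8, a peroxidase of the endoplasmic reticulum, was 6.77, 4.22 and 4.07 in WT and 313, 113 and 191 in the KO-labelled libraries (5.01, SE 0.45). SPEF2 and GPX8 passed the threshold through their KO-labelled values alone and so had to differ. LVRN, an aminopeptidase known from trophoblast, was 19.6, 1.34 and 3.89 in WT and 336, 129 and 273 in the KO-labelled libraries (5.21, SE 0.82), or 6.08 leaving out WT replicate 1 and 4.51 leaving out WT replicate 2. FOXD1, a forkhead factor, was 63.5, 23.5 and 22 in WT and 239, 201 and 221 in the KO-labelled libraries (2.74, SE 0.44). The WT value of replicate 1 was the highest of its group for GPX8, LVRN and FOXD1. ADAM19, a membrane metalloprotease, was 649, 384 and 381 in WT and 1833, 1254 and 1103 in the KO-labelled libraries (1.58, SE 0.29). UBTD2, a ubiquitin-domain protein, was 200.2, 138 and 136 in WT and 503, 506 and 552 in the KO-labelled libraries (1.74, SE 0.22). CDH12, a neuronal cadherin, was 83.5, 37.6 and 87.6 in WT and 416, 239 and 325 in the KO-labelled libraries (2.27, SE 0.40), while its relative CDH18 on the same arm was 221, 223 and 179.6 in WT and 7.04, 3.39 and 3.32 in the KO-labelled libraries (-5.28, SE 0.36). Of the 4 matrix and adhesion genes that passed, SPARC and CDH12 were called higher and CDH18 lower. The call of CDH12 was lost without KO-labelled replicate 3 (limma adjusted p = 0.0747). CTNNA1, alpha-catenin, had -0.47 (SE 0.15).

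The 41 genes at least 1 below the chromosome median had a median abundance of 78.4. EGFLAM, a matrix protein also called pikachurin, was 148, 68.7 and 96.6 in WT and 0, 0 and 3.09 in the KO-labelled libraries (-5.97, SE 0.66), and -6.65 without KO-labelled replicate 3. NKD2, an inhibitor of WNT signalling, was 842, 345 and 425 in WT and 89, 28.8 and 34.5 in the KO-labelled libraries (-3.45, SE 0.52). Both are among the 12 lowest by the naming rule, which kept only genes whose groups did not overlap. The pseudogene AACSP1 was 322, 264 and 265 in WT and 7.22, 2.19 and 0.969 in the KO-labelled libraries (-6.25, SE 0.54). EGFLAM, AACSP1, CDH18 and FYB1 passed the threshold through their WT values alone and so had to differ. LHFPL2, a tetraspan membrane protein, had -2.60 (SE 0.50) and TRIM7, a ubiquitin ligase, -2.44 (SE 0.37). FBXO38-DT, a divergent transcript, was 396, 247 and 271 in WT and 38.5, 17.8 and 19.9 in the KO-labelled libraries (-3.58, SE 0.38), while FBXO38 itself had -0.65 (SE 0.15). MRPS30-DT had -2.41 (SE 0.36) beside -1.27 for MRPS30. Counting settings are not given, so reads of overlapping or antisense partners such as EGFLAM and EGFLAM-AS4 may be shared between them.

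Neighbours of the highest genes were below 0 less often than chromosome 5 members as a whole, and neighbours of the lowest genes about as often. Over all 693 members 87.3% were below 0 and 56.4% were followers. The 12 highest members by the naming rule had 24 adjacent members, of which 11 were followers and 15 were below 0, with a median of -0.46, and the 4 that were strongly higher too were all beta protocadherins. SPARC lay next to ATOX1, a copper chaperone, at -0.26, and SPEF2 lay between DNAJC21 at -0.55 and LMBRD2 at -0.47. UBTD2 lay between STK10 at 0.43 and SH3PXD2B at 0.22, and OXCT1 between CARD6 at 0.01 and OXCT1-AS1 at 0.42. The 12 lowest members had 24 adjacent members, of which 9 were followers, 22 were below 0 and 6 were at least 1 below the chromosome median as well, with a median of -1.01. Among them EGFLAM lay beside EGFLAM-AS4 at -4.36 and LCP2 beside DOCK2, a Rac activator, at -1.87. FYB1 lay between RICTOR at -1.04 and DAB2 at -1.20, and PLK2 between GPBP1 at -0.58 and DEPDC1B at -0.69. The difference between the high and the low side was not tested. Runs of adjacent members at 0 or above were short: 45 held a single gene, 9 held 2 and 3 held 3, and the longest was the 7 genes from PCDHB2 to PCDHB15.

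At the threshold on low values, the third-highest library value was 10.01 for ENSG00000248367, whose difference was -1.72, and 10.03 for PCDHGA4 (0.06), both just inside. It was 9.98 for ENSG00000279107 (-0.71) and 9.97 for LINC01339 (-1.67), both just outside.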

How the data were processed

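Polyadenylated RNA was measured in 6 K562 libraries, 3 labelled WT and 3 labelled ACK KO, made with a strand-keeping kit from 500 ng of RNA, per the labels' protocols. Per the submitters' processing notes, which give no order, the tools included STAR 2.7.2b, Salmon 1.1.0 and DESeq2 1.26.0 with GRCh38; the sources used here state neither the counting settings nor the annotation release. The values the authors deposited are a signal, normalised read counts per gene that are not whole and not log transformed, so depth is unknown and no count test was run.

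Genes were placed with GENCODE 29, which held 19112 of 19498 identifiers; 386 had no position. Values were fitted as log2(value + 1) with limma 3.58.1 (intensity trend, R 4.3.3) over the 16658 genes that reached 10 in 3 or more of the 6 libraries, with Benjamini-Hochberg adjustment over all of them and a threshold of 0.05. That fit was tested on simulated data. Tables were handled with Python 3.11.15 and pandas 2.3.3. Where replicates are not separate cultures, limma's errors measure technical spread. Deviations from the group means correlated at 0.699, 0.521 and 0.342 between libraries of equal replicate number, each above 0.1, so the number was used as a block in a second fit; unlike numbers 2 and 3 gave 0.281 and 0.257.

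The chromosome, the 14 gene lists and the alternatives were chosen with earlier results of these data known. Named genes were the 12 highest and 12 lowest differences among genes whose higher group averaged at least 100 and whose groups did not overlap, the 10 highest WT means, up to 3 abundant members and the highest and lowest member of each list, and the genes next to the value threshold. Other genes were named after their values were seen. A few genes under this rule are not reported here. Abundance classes use the mean over 6 libraries, an alternative to the WT mean chosen after seeing the data. Promoters came from RefSeq on GRCh38.p14.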

Additional observations from a re-analysis of the deposited data

How the results depend on the processing

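The chromosome 5 median of -0.62, the arm medians, the share of genes below 0 and the interquartile range kept their direction under other pseudocounts (0.5 and 5), filters, scalings and left-out libraries. Rescaling to equal library sums gave -0.52 for the chromosome, -0.44 for the short arm and -0.56 for the long arm, where median-of-ratios scaling gave -0.61, -0.53 and -0.64. Without each library in turn the chromosome median ran from -0.64 to -0.60, the short arm from -0.57 to -0.48 and the long arm from -0.67 to -0.62, the share below 0 from 83.8% to 88.7% and the interquartile range from 0.49 to 0.66. Without the 2 stretches of higher windows the median was -0.63.

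Counts of called genes depended on the fit. The replicate block moved the chromosome 5 calls from 195 to 467 lower and from 22 to 37 higher, and those of all genes from 827 to 3337 lower and from 894 to 3275 higher. Leaving out replicate number 1 of both groups, chosen after seeing the data, gave 409 lower and 32 higher on chromosome 5 and 2292 lower and 2439 higher over all genes. Leaving out 1 library at a time gave 54 to 245 lower and 11 to 26 higher on chromosome 5, and 349 to 904 lower and 343 to 1279 higher over all genes. Other settings of the fit kept these counts within 1.5 times. Of the 46 named genes that were called, 25 lost the call in limma's fit when at least 1 library was left out, with adjusted p from 0.0505 to 0.198 in those fits.

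Of 684 values of 76 named genes under the alternatives, 675 moved by less than the spread between libraries, 9 moved further and 0 called values changed sign; PCDHGA6, which was not called, changed sign in 2. The pseudocount sets the size of the extreme differences: at 5, FYB1 was -7.08, EGFLAM -4.16, AACSP1 -5.16, CDH18 -4.49, SPEF2 5.61, LVRN 4.39, GPX8 4.29 and PCDHB5 3.99, and at 0.5 FYB1 was -9.93 and EGFLAM -6.69. Depth is unknown, so differences of genes under 100 rest on library spread alone.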

Other observations

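Position on the strand and gene length were set beside the differences of the chromosome 5 genes. The 355 genes on the plus strand had a median difference of -0.65 and the 338 on the minus strand of -0.59. In 4 equal groups by gene length the medians were -0.63, -0.63, -0.65 and -0.59, from genes of at most 11.7 kb to genes of 90.7 to 1103 kb, and the interquartile ranges were 0.59, 0.41, 0.40 and 0.66. The spread was thus widest among the longest and the shortest genes. Abundance and biotype were not compared between the length groups, so their part in it was not tested.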
